A study of Arabidopsis with 12 samples.

Results

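Ferredoxins, plastocyanins, the Rieske protein and ferredoxin-NADP reductase (FNR) carry electrons from the cytochrome b6f complex through photosystem I to NADPH. The set described here holds 7 genes of that chain and FD3, the root-type ferredoxin, 8 in all, chosen by locus identifier and not by how they moved: FD1 (AT1G10960), FD2 (AT1G60950), FD3 (AT2G27510), PETC (AT4G03280), PETE1 (AT1G76100), PETE2 (AT1G20340), FNR1 (AT5G66190) and FNR2 (AT1G20020). Each identifier stood alone in 1 locus of the deposited table, so the set makes up 8 of 28693 loci. All 8 belonged to the 20173 loci that entered the tests, because each lay far above the filter of 1 FPKM in at least 3 libraries (FPKM are fragments scaled to gene length and to all mapped fragments). RefSeq lists FD2 as FED A and PETE2 as DRT112.

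The chain mixes metals. PETC encodes the Rieske subunit of the cytochrome b6f complex, which holds an iron-sulphur cluster and hands electrons towards the thylakoid lumen. PETE1 and PETE2 encode plastocyanins, small copper proteins that shuttle those electrons to photosystem I. FD1 and FD2 encode the leaf ferredoxins, iron-sulphur proteins that take electrons from photosystem I, and FNR1 and FNR2 encode the leaf forms of the flavin enzyme that uses them to make NADPH. FD3 belongs to a root-type flow that runs the other way, from NADPH through root-type FNR to ferredoxin and on to enzymes such as nitrite reductase. Ferredoxins are among the iron proteins that plants are known to hold less of when iron is scarce.

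The study set 2 genotypes of Arabidopsis thaliana against 2 Fe supplies to ask how salicylic acid accumulation bears on Fe-deficiency responses. Col-0 served as wild type, and the mutant was phytoalexin deficient 4 (pad4), whose PAD4 gene encodes a lipase-like protein acting upstream of salicylic acid; the labels used here do not describe the allele. Plates held complete solid nutrient medium (+Fe) or the same medium with Fe left out (-Fe), and seedlings stayed on them for 7 d. Growth was at 24 °C with 140 µmol photons per m2 and s, 16 h of light and 8 h of dark. The 4 groups were wild type labelled +Fe, wild type labelled -Fe, pad4 labelled +Fe and pad4 labelled -Fe, with 3 libraries each and 12 in all. The tissue is given as shoot in a sample field, as leaves and roots in the extraction protocol and as seedlings in the design text.

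PAD4 stood at 18.1 to 21.97 FPKM in the 6 wild-type libraries and at 10.3 to 13.6 FPKM in the 6 pad4 libraries (log2 difference -0.70 labelled +Fe, limma adjusted p = 0.00102, and -0.77 labelled -Fe, adjusted p = 0.000108). Genes of Fe status went against the Fe labels. bHLH100, a regulator induced by Fe deficiency, reached 976 to 1137 FPKM in libraries labelled +Fe and 0.122 to 0.666 FPKM in those labelled -Fe, and IMA1, a peptide gene induced by Fe deficiency, lay at 536 to 753 and 1.88 to 5.50 FPKM. FER1, a ferritin that stores Fe, lay at 10.3 to 11.8 FPKM in libraries labelled +Fe and at 271 to 333 FPKM in those labelled -Fe. The sample titles carry the letters FE where the descriptions read +Fe and CK where they read -Fe. All directions below are therefore given by label, with libraries labelled -Fe set over those labelled +Fe, and say nothing of which plants had Fe.

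FPKM summed to 894824 to 1004002 per library, and 19096 to 19311 loci reached 1 FPKM. Relative depth ran from 0.57 to 1.00 of that of wild type labelled +Fe, replicate 1; absolute depth is unknown. Across loci, replicates correlated at r = 0.980 to 0.992. The highest locus, which merges AT1G07590 and AT1G07600, took 7.38 to 14.0% of all FPKM in libraries labelled +Fe and 2.52 to 6.18% in those labelled -Fe, and since FPKM are shares of a total, they are not independent within a library. Replicate 2 of the wild type under both labels, replicate 2 of pad4 labelled +Fe and replicate 3 of pad4 labelled -Fe deviated from their groups in a shared direction (r = 0.41 to 0.51 between them). Leaf marker genes were high everywhere (7 measured, summed 18240 to 44613 FPKM), whereas 9 of 16 root markers stayed below the filter and the 16 summed to 30.2 to 48.8 FPKM. Nothing in the labels states that replicates came from separate cultures, so p-values measure the spread between these libraries.

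**Figure D1:**
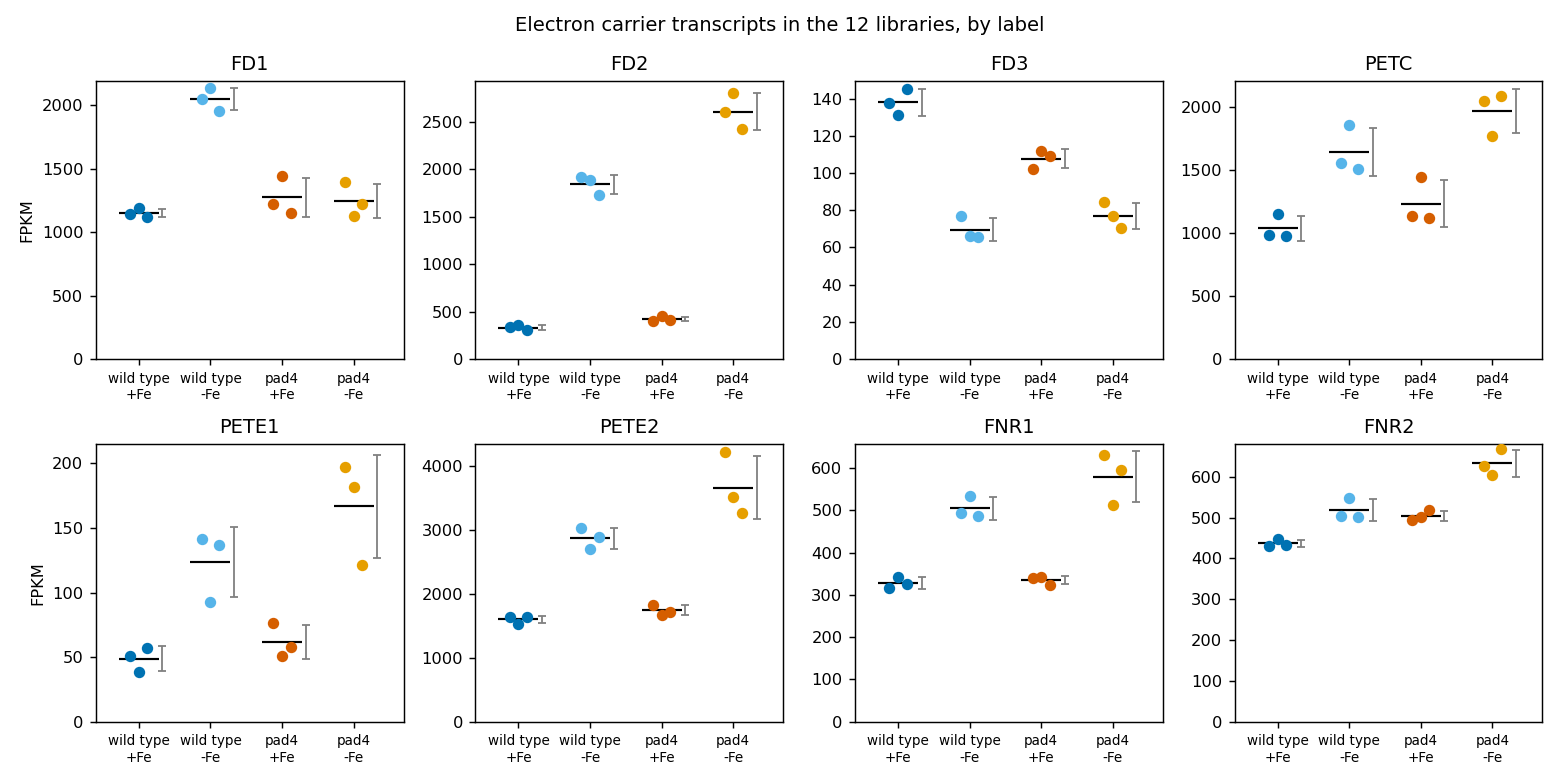
FPKM of the 8 electron carrier genes (vertical axes, linear, starting at 0) in each of the 12 libraries, by genotype and Fe label; points are libraries, black bars group means and grey bars 1 SD either side of the mean (n = 3). FD2 stands at 307 to 449.9 FPKM in the libraries labelled +Fe and at 1727 to 2804 FPKM in those labelled -Fe, FD1 is highest in the wild type labelled -Fe, and FD3 is lower under the -Fe label in both genotypes.

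In level, PETE2 led the set in every group: it was the 20th most abundant of all loci in wild type labelled +Fe and the 10th in pad4 labelled -Fe. FD3 and PETE1 were the lowest members in every group. Between them the order shifted at the ferredoxins. FD2 lay below FD1, PETC and FNR2 in both groups labelled +Fe, next below FD1 in wild type labelled -Fe and second only to PETE2 in pad4 labelled -Fe. FNR1 (328 ± 13.8 FPKM, SD, n = 3) and FD2 (332 ± 24.4 FPKM) were neighbours that differed by less than their spread in wild type labelled +Fe, as were FD1 (1272 ± 153 FPKM) and PETC (1232 ± 184 FPKM) in pad4 labelled +Fe.

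Under the Fe label, most of the leaf chain was higher in libraries labelled -Fe. In the wild type 7 members rose and FD3 fell (limma, Benjamini-Hochberg adjusted p under 0.05 over 20173 loci), and in all 8 the replicates of the groups did not overlap. Calls were common in this comparison: 51.9% of tested loci were called, 25.2% higher and 26.7% lower, and replicates did not overlap at 59.5%. In pad4 6 members rose, FD3 fell and FD1 did not pass, against 57.4% of loci called, 26.3% higher and 31% lower; the replicates of 7 members did not overlap, as at 61.8% of loci. The median log2 difference of the 8 members was 0.74 in the wild type and 0.73 in pad4, beside -0.02 and -0.05 over all tested loci. After quantile normalization 6 rose and 1 fell in the wild type (median 0.47), and 4 rose and 2 fell in pad4 (median 0.44). These are bulk libraries, in which fewer cells of a type and less RNA per cell cannot be told apart, and the 7 measured leaf markers moved as well: 5 rose and none fell in each genotype (median 0.65 and 1.11), their sum going from 18240 to 20856 FPKM up to 27419 to 34520 FPKM in the wild type and from 19537 to 22381 FPKM up to 34744 to 44613 FPKM in pad4. After quantile normalization 3 leaf markers rose in the wild type, and 4 rose and 1 fell in pad4. Their part in the rise of the leaf carriers was not tested.

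FD2 (chromosome 1, 22444390 to 22445222, TAIR10), generally the more abundant ferredoxin protein of leaves, moved most. Its FPKM were 333, 356 and 307 in wild type labelled +Fe, 1916, 1884 and 1727 in wild type labelled -Fe, 405, 449.9 and 408 in pad4 labelled +Fe, and 2598, 2804 and 2421 in pad4 labelled -Fe. Every library labelled -Fe lay far above every library labelled +Fe, and within each label all pad4 libraries lay above all wild-type libraries. FD2 rose by 2.47 log2 units in the wild type (SE 0.0895, adjusted p = 1.96e-09), or 5.54-fold, and by 2.63 in pad4 (adjusted p = 1.16e-09). These 2 responses were not shown to differ (difference 0.16, 95% interval -0.12 to 0.43, adjusted p = 0.457).

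FD1 (chromosome 1, 3664386 to 3665039), the minor leaf form by protein although its transcript exceeded that of FD2 in 3 of the 4 groups, behaved differently in the 2 genotypes. It stood at 1142, 1186 and 1122 FPKM in wild type labelled +Fe, 2048.2, 2137 and 1956 in wild type labelled -Fe, 1223, 1444 and 1151 in pad4 labelled +Fe, and 1390.5, 1127 and 1223 in pad4 labelled -Fe. The 3 wild-type libraries labelled -Fe stood above all others, and the pad4 libraries of the 2 labels overlapped. FD1 rose by 0.83 log2 units in the wild type (SE 0.106, adjusted p = 5.37e-05). In pad4 the difference was -0.03 (95% interval -0.26 to 0.21, adjusted p = 0.836), and it was called lower after quantile normalization (-0.29, adjusted p = 0.0181).

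The difference between the FD1 responses of the genotypes passed the test itself. It was -0.86 log2 units (SE 0.150, 95% interval -1.19 to -0.53, adjusted p = 0.00287), in a comparison that called 14.7% of loci, 7.58% lower and 7.07% higher. FD1 and FD3 were the members called in it, and the FD1 call held in all 19 alternatives (-0.94 to -0.74, adjusted p up to 0.0117). A list of 9 heat shock genes was kept because it had moved with the Fe label in earlier results of these data. Its movement here is therefore no independent result. Under the Fe label 25.2% of all tested loci were called higher in the wild type and 31% lower in pad4. The summed FPKM of the 9 heat shock genes were 1859 to 2359 in wild type labelled +Fe and 8141 to 10350 in wild type labelled -Fe (9 of 9 genes rose, median 4.69). In pad4 they were 3117 to 4221 labelled +Fe and 1294 to 1743 labelled -Fe (7 of 9 fell, median -1.20). All 9 responses differed between the genotypes in the direction of FD1 (median -6.95), and the part of this state in the FD1 result was not tested. FD1 and FD2 are similar paralogues, and how the authors assigned reads shared by such genes is not given in the sources used here, so the split between them carries that uncertainty, as it does for PETE1 with PETE2 and FNR1 with FNR2.

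FD3 (chromosome 2, 11758079 to 11759476) was the member that fell. It stood at 138, 131 and 145 FPKM in wild type labelled +Fe, 76.8, 66.1 and 65.8 in wild type labelled -Fe, 102, 112 and 109 in pad4 labelled +Fe, and 84.3, 76.7 and 70.3 in pad4 labelled -Fe. The groups labelled -Fe overlapped each other and lay below both groups labelled +Fe, and pad4 labelled +Fe lay between them and wild type labelled +Fe. FD3 fell by 0.98 log2 units in the wild type (SE 0.0857, adjusted p = 2.59e-06) and by 0.48 in pad4 (adjusted p = 0.000599). The responses differed by 0.50 (95% interval 0.23 to 0.77, adjusted p = 0.0174), a call that was lost without replicate 3 of wild type labelled +Fe (0.46, adjusted p = 0.0518).

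PETC (chromosome 4, 1440146 to 1441863), the Rieske iron-sulphur protein, rose in both genotypes. Its FPKM were 986, 1149 and 976 in wild type labelled +Fe, 1554, 1859 and 1507 in wild type labelled -Fe, 1134, 1445 and 1119 in pad4 labelled +Fe, and 2049, 1766 and 2090.2 in pad4 labelled -Fe. Within a genotype the labels did not overlap, while within a label the genotypes did. The log2 differences were 0.66 in the wild type (SE 0.130, adjusted p = 0.00132) and 0.68 in pad4 (adjusted p = 0.000979). After quantile normalization they were 0.34 (adjusted p = 0.0443) and 0.32, the latter no longer called (adjusted p = 0.0534). The difference between the genotypes' responses was 0.02 (95% interval -0.38 to 0.43, adjusted p = 0.951).

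The plastocyanins, the copper carriers, rose in both genotypes. PETE2 (chromosome 1, 7042429 to 7043363), the major form, stood at 1631, 1533 and 1637 FPKM in wild type labelled +Fe, 3026, 2697 and 2885 in wild type labelled -Fe, 1826, 1673 and 1721 in pad4 labelled +Fe, and 4213, 3508 and 3259.7 in pad4 labelled -Fe. The 4 groups did not overlap one another. PETE2 rose by 0.84 log2 units in the wild type (SE 0.108, adjusted p = 5.36e-05) and by 1.06 in pad4 (adjusted p = 7.96e-06), values that were 0.47 and 0.65 after quantile normalization and remained called. PETE1 (chromosome 1, 28553987 to 28554768), the minor form, stood at 51.2, 38.3 and 57.2 FPKM in wild type labelled +Fe, 141, 92.9 and 137 in wild type labelled -Fe, 76.4, 50.6 and 58.2 in pad4 labelled +Fe, and 197, 182 and 122 in pad4 labelled -Fe. Its labels did not overlap within a genotype, and its replicates spread more widely, relative to their mean, than those of the other 7 members. PETE1 rose by 1.32 (SE 0.230, adjusted p = 0.000556) and by 1.41 (adjusted p = 0.000311). Neither plastocyanin response was shown to differ between genotypes (PETE2 0.22, 95% interval -0.11 to 0.56, adjusted p = 0.372, and PETE1 0.10, interval -0.62 to 0.81, adjusted p = 0.876).

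The FNR genes moved less. FNR1 (chromosome 5, 26448938 to 26453199) stood at 315, 342 and 325 FPKM in wild type labelled +Fe, 492, 535 and 486 in wild type labelled -Fe, 339, 341 and 323 in pad4 labelled +Fe, and 631, 512 and 596 in pad4 labelled -Fe. The file gives FNR1 the same span as its neighbour AT5G66180, which has a row of its own. FNR1 was nearly level across the 2 groups labelled +Fe and higher, with overlapping genotypes, in those labelled -Fe. It rose by 0.62 log2 units in the wild type (SE 0.0841, adjusted p = 8.27e-05) and by 0.79 in pad4 (adjusted p = 1.24e-05). FNR2 (chromosome 1, 6942717 to 6945018) stood at 430.3, 447 and 432 FPKM in wild type labelled +Fe, 505, 549 and 501 in wild type labelled -Fe, 494, 502 and 518 in pad4 labelled +Fe, and 626, 604 and 669 in pad4 labelled -Fe. Wild type labelled -Fe and pad4 labelled +Fe overlapped, with the wild type labelled +Fe below and pad4 labelled -Fe above them. FNR2 rose by 0.25 (SE 0.0678, adjusted p = 0.00992) and by 0.32 (adjusted p = 0.00174), and neither call held after quantile normalization (0.04, adjusted p = 0.700, and 0.08, adjusted p = 0.449). The genotypes' responses were not shown to differ for FNR1 (0.17, 95% interval -0.10 to 0.43, adjusted p = 0.398) or FNR2 (0.08, interval -0.13 to 0.29, adjusted p = 0.629).

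**Figure D2:**
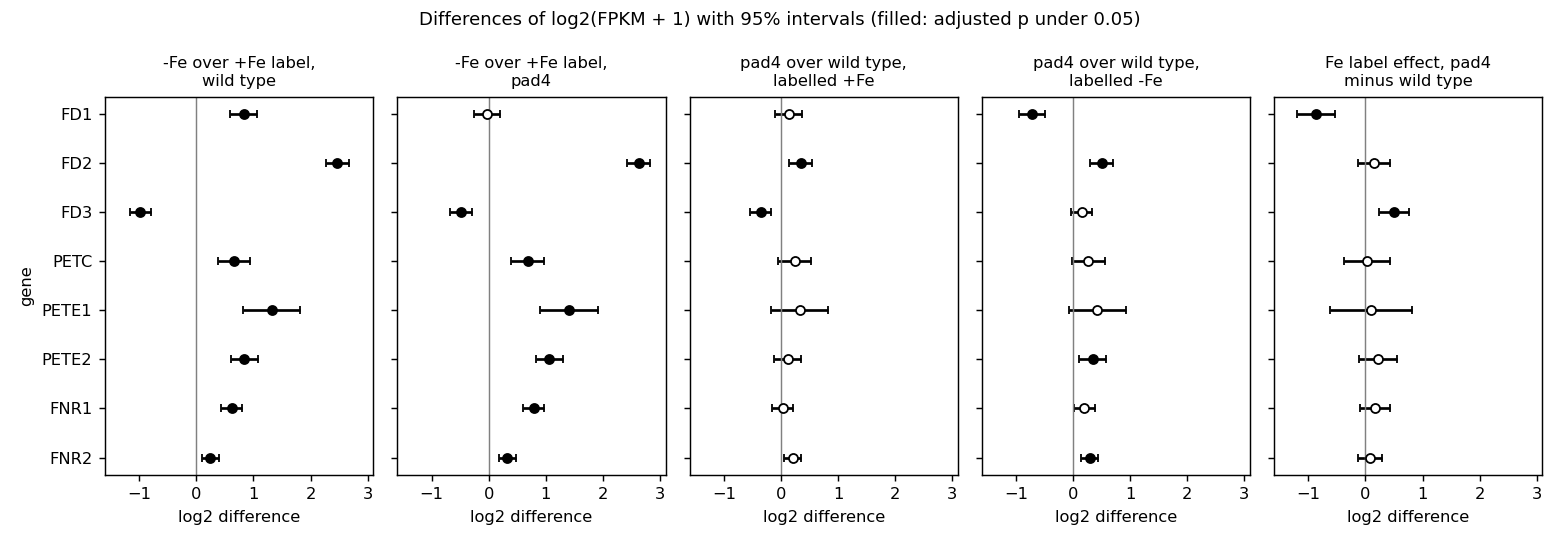
Differences of log2(FPKM + 1) for the 8 genes (rows) in the 5 comparisons (panels), with 95% intervals from limma; filled points have an adjusted p under 0.05. FD2 stands at 2.47 and 2.63 in the panels of the Fe label, FD3 at -0.98 and -0.48, and FD1 is the gene farthest from 0 in the right panel, at -0.86.

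Paired genes were compared directly, because a call in one gene and not in its paralogue is no test of a difference. The within-library log2 difference of each pair was set against the Fe label within genotype and against genotype within label, by exact two-sided permutation over 400 arrangements (smallest possible p 0.005, 4 pairs, 8 tests, Benjamini-Hochberg). FD2 responded to the label more than FD1 by 2.15 log2 units (exact p = 0.005, adjusted p = 0.01), 1.64 in the wild type and 2.65 in pad4. FD2 over FD1 was also higher in pad4 than in the wild type by 0.71 (exact p = 0.005, adjusted p = 0.01), 0.20 among libraries labelled +Fe and 1.22 among those labelled -Fe. FNR1 responded more than FNR2 by 0.42 (exact p = 0.005, adjusted p = 0.01). FNR1 over FNR2 was lower in pad4 by 0.14 (exact p = 0.02, adjusted p = 0.032), which missed the threshold when any of the 3 libraries of wild type labelled +Fe, replicate 3 of pad4 labelled +Fe or replicate 2 of pad4 labelled -Fe was left out (exact test, adjusted p = 0.0533 to 0.0667). PETE2 responded less than PETE1 (difference -0.41, exact p = 0.025, adjusted p = 0.0333), and this missed the threshold in 7 of the 12 repeats that each leave out 1 library (exact test, adjusted p = 0.0514 to 0.0667).

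Within the leaf ferredoxins the FD2 share was higher under the -Fe label, and FD2 exceeded FD1 in pad4 labelled -Fe but in no wild-type library. FD2 made up 22.6, 23.1 and 21.5% of the FD1 and FD2 FPKM in wild type labelled +Fe and 48.3, 46.9 and 46.9% in wild type labelled -Fe. In pad4 its share was 24.9, 23.8 and 26.2% under the +Fe label and 65.1, 71.3 and 66.4% under the -Fe label. The summed leaf ferredoxin FPKM nevertheless lay close together in the 2 genotypes labelled -Fe, at 3889 ± 181 in the wild type and 3854 ± 185 in pad4 (SD, n = 3), beside 1482 ± 56.7 and 1693 ± 177 under the +Fe label. FNR1 contributed 42.9 ± 0.541% of leaf FNR FPKM in wild type labelled +Fe, 49.3 ± 0.0818% in wild type labelled -Fe, 39.9 ± 1.25% in pad4 labelled +Fe and 47.7 ± 2.24% in pad4 labelled -Fe. PETE2 held nearly all of the plastocyanin FPKM throughout, from 97.0 ± 0.475% in wild type labelled +Fe to 95.7 ± 0.678% in pad4 labelled -Fe.

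Iron and copper carriers both moved. Of the 4 iron-sulphur members 3 rose and FD3 fell in the wild type, and FD2 and PETC rose and FD3 fell in pad4. Both copper members and both flavin members rose in each genotype. Of all tested loci 51.9% were called in the wild type and 57.4% in pad4. After quantile normalization FNR2 was called in neither genotype, and in pad4 PETC was not called and FD1 was called lower. FD2 responded more than PETE2, the major copper carrier, by 1.60 log2 units (exact permutation p = 0.005, adjusted p = 0.01). This did not extend to the other iron carriers of the leaf chain. FD1 (0.83 in the wild type and -0.03 in pad4) and PETC (0.66 and 0.68) did not exceed PETE2 (0.84 and 1.06) or PETE1 (1.32 and 1.41). Those differences were not tested. For FD2 against PETE2 the genotype difference was 0.19 (exact p = 0.06, adjusted p = 0.0686), which passed without replicate 1 of pad4 labelled -Fe (0.24, exact test, adjusted p = 0.0267). The ratio of summed plastocyanin to summed leaf ferredoxin FPKM was 1.14, 1.02 and 1.19 in wild type labelled +Fe and 0.799, 0.694 and 0.820 in wild type labelled -Fe. In pad4 it was 1.17, 0.910 and 1.14 under the +Fe label and 1.11, 0.939 and 0.928 under the -Fe label, so the labels did not overlap in the wild type and did overlap in pad4. PETC per leaf ferredoxin was lower under the -Fe label in both genotypes (0.699 ± 0.0406 and 0.421 ± 0.0368 in the wild type, 0.726 ± 0.0341 and 0.512 ± 0.0622 in pad4), as was leaf FNR per leaf ferredoxin (0.516 ± 0.0130 and 0.263 ± 0.0100, then 0.499 ± 0.0487 and 0.315 ± 0.0316).

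**Figure D3:**
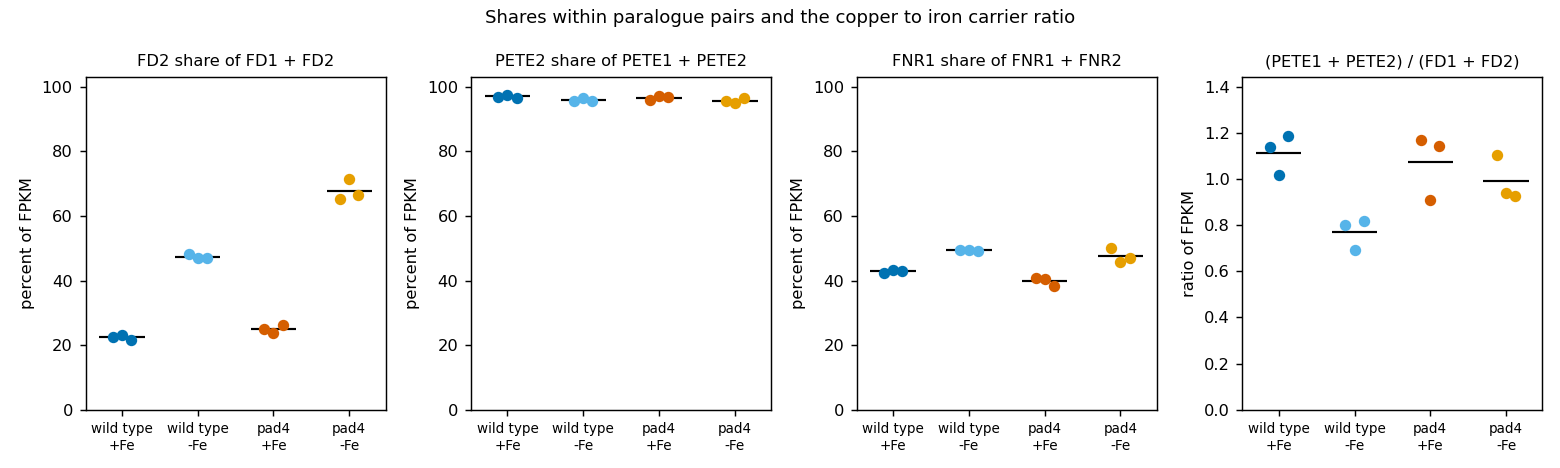
Share of FPKM held by 1 gene of each paralogue pair (percent, first 3 panels) and ratio of summed plastocyanin to summed leaf ferredoxin FPKM (right panel), with axes starting at 0; points are libraries and bars group means (n = 3). The FD2 share is 21.5 to 26.2% in libraries labelled +Fe, 46.9 to 48.3% in wild type labelled -Fe and 65.1 to 71.3% in pad4 labelled -Fe, while the PETE2 share stays between 95.1 and 97.6%.

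Between genotypes, few members differed under the +Fe label. FD2 was higher in pad4 by 0.34 log2 units (limma adjusted p = 0.0349) and FD3 lower (-0.35, adjusted p = 0.0246), 2 of 8 members where 9.35% of loci were called, 3.69% higher and 5.66% lower. Both calls were fragile. That of FD2 was lost without replicate 1 or 3 of wild type labelled +Fe or any replicate of pad4 labelled +Fe (0.29 to 0.37, adjusted p = 0.0678 to 0.161) and with no filter on low values (adjusted p = 0.0611). That of FD3 was lost without replicate 1 or 3 of either group (-0.37 to -0.32, adjusted p = 0.0660 to 0.110). The differences of the other 6 ranged from 0.03 for FNR1 (adjusted p = 0.863) to 0.33 for PETE1 (adjusted p = 0.430). Of the 8 members FD2, FD3, FNR2 (0.21, adjusted p = 0.0845) and PETE2 (0.12, adjusted p = 0.543) had replicates that did not overlap, as at 31.7% of loci.

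Among libraries labelled -Fe, FD1 was lower in pad4 and 3 members were higher, where 27.9% of loci were called (13.5% higher, 14.4% lower). FD1 differed by -0.72 log2 units (SE 0.106, adjusted p = 0.000403), a call kept in all 20 alternatives; the heat shock list was lower in these pad4 libraries too (8 of 9 genes fell, 1 rose, median -5.83), and its part was not tested. FD2 was higher by 0.50 (adjusted p = 0.00149), a value that was 0.29 after quantile normalization (adjusted p = 0.0297). FNR2 was higher by 0.29 (adjusted p = 0.00803), a call lost when only the 2 groups compared were fitted (adjusted p = 0.0738). PETE2 was higher by 0.34 (adjusted p = 0.0336), and this call was lost in 11 of 20 alternatives (0.19 to 0.38, adjusted p up to 0.202), among them those without replicate 1 or 3 of wild type labelled +Fe, replicate 3 of pad4 labelled +Fe, any replicate of wild type labelled -Fe, or replicate 1 or 2 of pad4 labelled -Fe. The replicates of FD1, FD2, PETE2 and FNR2 did not overlap, as at 37.2% of loci. PETC (0.27, adjusted p = 0.163), PETE1 (0.42, adjusted p = 0.206), FNR1 (0.20, adjusted p = 0.112) and FD3 (0.15, adjusted p = 0.243) did not pass; FNR1 did without replicate 2 of pad4 labelled -Fe (0.28, adjusted p = 0.0209). Without the 4 libraries that deviated together, an alternative chosen after seeing the data, PETC (0.31, adjusted p = 0.0262) and PETE1 (0.44, adjusted p = 0.0239) passed, as did FNR2 under the +Fe label (0.23, adjusted p = 0.0349). Leaving out libraries because they deviate from their groups narrows the spread by selection, so these calls add no support.

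The carriers' partners were counted on 6 lists drawn up by role. All 12 nuclear photosystem I subunits rose under the -Fe label in both genotypes (median 1.13 in the wild type and 1.41 in pad4), where 25.2% and 26.3% of all tested loci were called higher. PSAF, the subunit at which plastocyanin docks, went from 261 ± 12.7 to 1028 ± 21.9 FPKM in the wild type (log2 difference 1.98) and from 300.5 ± 9.59 to 1289.6 ± 67.4 FPKM in pad4 (2.097). PSAD1, at the ferredoxin side, rose by 1.49 and 1.80. Among libraries labelled -Fe 9 of the 12 were called higher in pad4 (median 0.36), against 13.5% of loci, and none of the 12 responses was called different between genotypes, against 14.7% of loci.

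The cytochrome b6f and cyclic flow list gave 8 tested genes of 11. In the wild type 2 rose and 1 fell (median 0.63), and in pad4 5 rose and 2 fell (median 1.21). That is 3 of 8 where 51.9% of loci were called and 7 of 8 where 57.4% were. Of the 8 genes 4 are chloroplast genes (PETA, PETB, PETD and PETN), and their replicates scattered widely in wild type labelled -Fe, where PETB stood at 65.3, 4.17 and 7.51 FPKM and PETD at 81.6, 11.9 and 10.4. In pad4 labelled -Fe PETB stood at 17.3, 54.1 and 27.7 FPKM and PETD at 26.4, 68.1 and 31.7, so the pad4 counts carry this limit too. PETM, a small nuclear subunit of the complex to which PETC belongs, went from 550.5 ± 25.4 to 1574 ± 105 FPKM in the wild type (1.51) and from 676 ± 41.6 to 2203 ± 223 FPKM in pad4 (1.70). PGR5, needed for cyclic flow around photosystem I, showed -0.06 (adjusted p = 0.873) and 0.48 (adjusted p = 0.157), the latter called without the 4 libraries that deviated together (0.48, adjusted p = 0.000116). Those libraries were left out for their deviation, which narrows the spread by selection, so that call adds no support. CYTC6A lay in a merged locus and was not tested, and the chloroplast genes PETG and PETL were listed at 0 in every library, which can be a failed estimate.

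Of 8 tested genes on the list of other ferredoxins, FNR genes and their membrane anchors, 4 rose and 2 fell in the wild type (median 0.27) and 3 rose and 3 fell in pad4 (median 0.10), shares of called genes to be read against 51.9% and 57.4% of all loci; FD4 was listed at 0 throughout. FDC1 and FDC2, ferredoxins with an extended C-terminus, rose by 0.70 and 0.67 in the wild type and by 0.98 and 0.83 in pad4. TIC62, which anchors leaf FNR at membranes, rose by 0.68 and 0.55, and TROL, another membrane anchor of FNR, by 0.38 in the wild type (adjusted p = 0.00551), with 0.17 in pad4 (adjusted p = 0.137). The root-type FNR genes RFNR1 and RFNR2 fell in both genotypes. The third gene that fell in pad4 was MFDX2, a mitochondrial ferredoxin named after its values were seen (-0.33, adjusted p = 0.00674), with -0.03 in the wild type (adjusted p = 0.769).

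RFNR1 and RFNR2, the root-type FNR genes, and NIR1, an enzyme that ferredoxin feeds, stand on different lists and were each lower under the -Fe label. Of the other 9 tested enzymes fed by ferredoxin none fell and 5 rose in each genotype, among them the sulphite reductase SIR. Whether the genes that fell moved as a group was not tested. RFNR1 went from 173 ± 32.2 to 67.5 ± 15.6 FPKM in the wild type and from 154 ± 30.1 to 54.2 ± 8.98 FPKM in pad4 (-1.35 and -1.49). RFNR2 went from 74.0 ± 2.17 to 23.0 ± 1.65 FPKM and from 44.7 ± 1.15 to 21.3 ± 1.07 FPKM (-1.65 and -1.04), a response that differed between genotypes by 0.61 (limma adjusted p = 0.00124). NIR1, the nitrite reductase that ferredoxin feeds, fell by 1.07 in the wild type and by 0.47 in pad4, a difference of 0.61 (adjusted p = 0.0135). RFNR2 and NIR1 were also lower in pad4 under the +Fe label (-0.71, adjusted p = 9.5e-05, and -0.56, adjusted p = 0.00457), beside -0.35 for FD3, whose call there was fragile. This was not particular to genes that fell under the -Fe label. SIR, which rose under it, was lower in pad4 labelled +Fe too (84.4 ± 7.17 FPKM, against 125 ± 5.10 in the wild type). The RFNR1 response was not shown to differ (-0.14, adjusted p = 0.783). Of 16 root markers 7 passed the filter, the highest being SCR at 15.2 to 24.4 FPKM. The 16 summed to 33.8 to 38.1 FPKM in wild type labelled +Fe and 35.4 to 42.9 in wild type labelled -Fe. In pad4 they summed to 30.2 to 39.9 labelled +Fe and 45.8 to 48.8 labelled -Fe. SCR made up more of this sum than any other marker. Of the 7 tested markers 2 rose and 1 fell in the wild type, where 51.9% of all loci were called. In pad4 3 rose and none fell, where 57.4% were called. The part of root cells in the fall of FD3, RFNR1, RFNR2 and NIR1 was not tested.

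**Figure D4:**
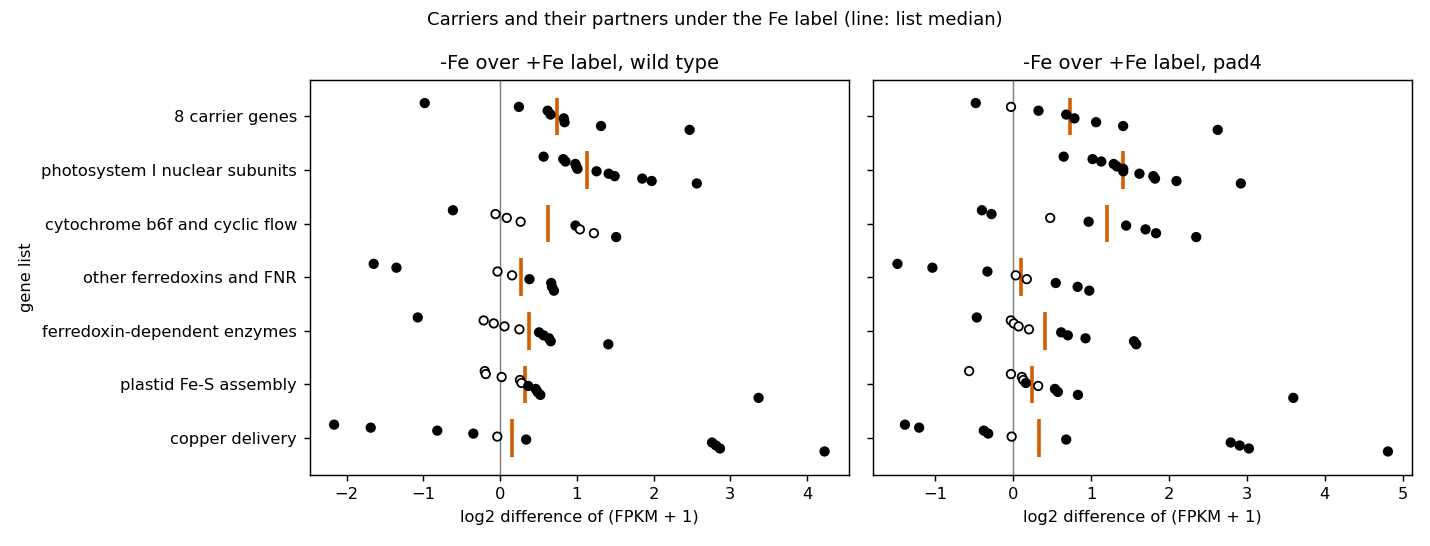
Differences of log2(FPKM + 1) between libraries labelled -Fe and +Fe (horizontal axes) for the 8 carriers and the tested genes of 6 partner lists (rows), in the wild type (left) and pad4 (right); filled points have an adjusted p under 0.05 and vertical bars are list medians. All photosystem I subunits lie to the right of 0 (medians 1.13 and 1.41), while the copper and other ferredoxin lists hold genes on both sides.

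Of 10 tested enzymes that ferredoxin feeds, 5 rose and 1, NIR1, fell in each genotype (median 0.38 and 0.41), 6 of 10 called where 51.9% and 57.4% of all loci were. SIR, the sulphite reductase, rose by 0.66 in the wild type and by 1.55 in pad4, a difference of 0.89 (limma adjusted p = 0.000629). FTRC, the catalytic subunit of ferredoxin-thioredoxin reductase, showed 0.25 in the wild type (adjusted p = 0.151) and rose by 0.62 in pad4 (adjusted p = 0.00278). The wild-type value was called without replicate 2 of wild type labelled -Fe (0.37, adjusted p = 0.0401) and without the 4 libraries that deviated together (0.28, adjusted p = 0.0319). Leaving out those 4 narrows the spread by selection, so the call without them adds no support. Of 10 tested genes of plastid iron-sulphur cluster assembly, 5 rose and none fell in each genotype (median 0.32 and 0.24), a called share near those of all loci (51.9% and 57.4%). SUFB, a scaffold protein of that pathway named after its values were seen, went from 10.002 ± 0.852 to 113 ± 10.2 FPKM in the wild type and from 8.78 ± 0.774 to 117 ± 5.62 FPKM in pad4 (3.37 and 3.597).

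The copper list, which holds superoxide dismutases beside transporters, chaperones and a regulator, had 5 of 10 genes higher and 4 lower in each genotype (median 0.15 and 0.33), against 51.9% and 57.4% of all loci called. The 5 that rose were PAA2, CCS and the dismutases CSD1, CSD2 and FSD1. PAA2, the thylakoid pump that supplies plastocyanin with copper, rose by 0.34 in the wild type and by 0.68 in pad4 (difference 0.34, limma adjusted p = 0.0452). CCS, the copper chaperone of superoxide dismutase, went from 13.0 ± 0.538 to 94.1 ± 7.43 FPKM in the wild type and from 15.1 ± 1.58 to 120.1 ± 7.63 FPKM in pad4 (2.76 and 2.91). CSD2, the plastid copper and zinc dismutase, rose by 4.23 and 4.81. FSD1, an iron dismutase, rose as well, by 2.87 and 2.79, so that transcripts of the copper and the iron form were both higher under the -Fe label. The genes that fell are named after their values were seen. CCH, a copper chaperone, went from 925 ± 25.4 to 287 ± 4.21 FPKM in the wild type and from 812 ± 21.6 to 352 ± 25.8 FPKM in pad4 (-1.68 and -1.21). The copper importers COPT2 (-2.16 and -1.39) and COPT1 (-0.82 and -0.38) fell in both genotypes. PAA1, a copper pump of the plastid envelope, fell in the wild type (-0.35, adjusted p = 0.00627) with -0.02 in pad4 (adjusted p = 0.862), and SPL7, a regulator of copper responses, fell in pad4 (-0.32, adjusted p = 0.0102) with -0.04 in the wild type (adjusted p = 0.763).

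In the authors' deposited tables a call corresponds to a q-value under 0.05 with a log2 fold of at least 1 in size. By that rule the authors' deposited table for the wild type called FD2 (log2 fold 2.48) and PETE1 (1.33) and left out FD1 (0.82, q-value 0.000198), while FNR2 had a q-value of 0.0981. For pad4 the authors' deposited table called FD2 (2.69), PETE1 (1.44) and PETE2 (1.08), and gave FD1 a log2 fold of -0.0030 (q-value 0.984). No member was called in the authors' deposited tables for genotype, where FD1 under the -Fe label had -0.71 (q-value 0.000495) and FD2 0.50 (q-value 0.00752). For PETE1 under the -Fe label the authors' deposited table gave a q-value of 0.0132 and for PETE2 one of 0.120.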

How the data were processed

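Electron carrier transcripts were measured by RNA sequencing in 12 libraries, 3 per group. The authors deposited FPKM per locus and library, with TAIR10 as the build named in the submitters' processing notes; which aligner and counter were used, and how reads shared by paralogues were treated, is not given in the sources used here. In 4 further tables the authors deposited group FPKM scaled within that table, a log2 fold, a p-value and a q-value, per the file headers. A rounded copy of the expression table was not used. Depth is known only in relative terms, so no counting intervals were computed, and 354 loci merge more than 1 gene.

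A locus was tested if it reached 1 FPKM in 3 or more libraries, which 20173 loci did. log2(FPKM + 1) was fitted in limma 3.58.1 (R 4.3.3, eBayes, trend on) with 1 mean for each group over all 12 libraries, and an adjusted p (Benjamini-Hochberg) under 0.05 was a call. All log2 differences are on that scale, which understates the change of low genes. Fe label effects are -Fe over +Fe, genotype effects pad4 over wild type, and the fifth comparison is the difference between those Fe label effects, pad4 minus wild type. Pairs of genes were compared by exact permutation within the other factor; shares and ratios are descriptions.

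The 8 genes, their 18 partners named by role, the lists, and the 3 loci most like each member were set by rule, with earlier results of these data known. Marker lists (16 root, 8 leaf with 1 in a merged locus) and 9 heat shock genes were counted. The heat shock genes were kept because they had moved with the Fe label in earlier results of these data. Alternatives were no low-value filter, quantile normalization, rescaling without the 10 highest loci, a pseudocount of 0.1, no trend, the replicate block, only the compared groups, each library left out in turn and, added after seeing the data, no libraries that deviated together. Replicate numbers come from the sample titles, which state no shared batch. Deviations from group means correlated at 0.12 to 0.51 for every same-numbered pair among the 3 groups other than pad4 labelled -Fe. Between the genotypes labelled +Fe, replicates 1 and 3 correlated more with their own number (0.28 and 0.20) than with the other (0.16 and 0.10). Across the wild-type labels they correlated less with their own number (0.12 and 0.19, against 0.29 and 0.23). The numbers were therefore not shown to pair the Fe labels of the wild type, and the main fit did not use them. No sequences are printed.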

Additional observations from a re-analysis of the deposited data

Results flagged for a closer look

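A pair of genes had responses to the Fe label that differed between the genotypes by the test of the difference itself (limma, adjusted over all loci). FD1 was flagged at -0.86 log2 units (pad4 minus wild type, adjusted p = 0.00287), with 0.83 in the wild type and -0.03 in pad4. The 9 heat shock genes, kept because they had moved in earlier results of these data, differed in the same direction (median -6.95). Their part in the FD1 value was not tested. FD3 was flagged at 0.50 (adjusted p = 0.0174), with -0.98 in the wild type and -0.48 in pad4, and missed the threshold without replicate 3 of wild type labelled +Fe (0.46, adjusted p = 0.0518).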

How the results depend on the processing

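Under up to 20 alternatives the members kept direction and side of the threshold in 159 of 160 values for the Fe label in the wild type, 154 of 160 in pad4, 149 and 145 of 160 for genotype under the +Fe and -Fe labels, and 138 of 152 for the difference in response; of 680 partner values 673 did. Called members numbered 1 instead of 2 for genotype labelled +Fe with no low-value filter, and 2 instead of 4 for genotype labelled -Fe with only the compared groups. Without the 4 libraries that deviated together, chosen after seeing the data, 3151 loci instead of 1887 were called for genotype labelled +Fe, and FD1 in pad4 was 0.078. Leaving those libraries out narrows the spread within groups by selection, so calls gained in this way add no support. With quantile normalization PGR5 in the wild type was 0.015, and the differences in response were -0.094 for FD2 and -0.021 for PETC.

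Leaving out each library in turn gave 1026 to 2067 called loci and 0 to 2 called members for genotype labelled +Fe (1026 and 1048 loci without replicates 1 and 3 of the wild type labelled +Fe, 1210 and 1203 without replicates 2 and 3 of pad4 labelled +Fe), and 1 to 2 members for the difference in response. The ranges were -0.49 to -0.35 for PETE2 minus PETE1 by label, -0.17 to -0.11 for FNR1 minus FNR2 by genotype and 0.15 to 0.24 for FD2 minus PETE2 by genotype. PETE2 minus PETE1 missed the threshold (exact test, adjusted p = 0.0514 to 0.0667) without replicate 2 of wild type labelled +Fe, 2 or 3 of pad4 labelled +Fe, 1 or 3 of wild type labelled -Fe, or 1 or 2 of pad4 labelled -Fe; with 1 library fewer there are fewer arrangements. Values not past the threshold that turned sign ranged from -0.11 to 0.066 for FD1 in pad4, -0.26 to 0.19 for PGR5 in the wild type, -0.053 to 0.14 for the PETC difference in response and -0.096 to 0.31 for that of PETE1. For calls lost or turned the cause was not tested.

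Pairs with pad4 labelled -Fe ran from -0.42 to 0.14, so replicate numbers do not pair the 3 comparisons that include it, and 4 of 12 libraries correlated best with their own number. With the replicate block, which changed no call of a member or named partner, the called members were 8, 7, 2, 4 and 2 in the 5 comparisons, and the called loci 10538, 11662, 1870, 5638 and 2929. No counts per library were used, so differences among low partners such as root markers cannot be given counting limits.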

Other observations

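For each carrier the 3 loci with the most similar profile were found among 8484 loci with a symbol, as the smallest root mean square difference of centred log2(FPKM + 1) over the 12 libraries. For FD2 these were SRG3 (0.147), CCS (0.203) and PSAN (0.214), and SRG3 had group means of 8.60 and 41.5 FPKM in the wild type labelled +Fe and -Fe and of 10.3 and 67.1 FPKM in pad4. For FD1 they were KNAT4 (0.0980), ECA4 (0.0983) and SPP (0.107), each higher in wild type labelled -Fe than in the other groups, as ECA4 shows with 51.3 FPKM there and 30.1, 32.5 and 34.0 FPKM elsewhere. PUB25 (0.0995), GPT1 (0.101) and ALIS1 (0.112) were nearest to FD3. PETE2 lay nearest to CAB1 (0.0652), LHCA3 (0.0765) and PSAL (0.0812), and PETE1 to LHCB3 (0.129), RBCS3B (0.141) and SBP2 (0.150). PETC was most like NACA2 (0.0570), ARAB-1 (0.0628) and EMB3143 (0.0753). FNR1 was most like PAS2 (0.0605), MAP1C (0.0625) and GGPS1 (0.0626), and FNR2 most like ALB3 (0.0491), EGY2 (0.0526) and HMA4 (0.0534). Among the carriers themselves PETC and FNR1 were the closest pair (0.123), and FD2 and FD3 the farthest apart (1.67), with FD1 and FD2 at 1.16. Each of these is a description over libraries that share the same Fe labels, and each library's FPKM share a total.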
